A study of Caenorhabditis elegans with 3 samples.

Results

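The flp genes of the nematode Caenorhabditis elegans, which encode FMRFamide-like neuropeptides, were examined together with genes that process and release such peptides. The members were all genes with a single platform symbol starting with flp-, plus egl-3, egl-21, sbt-1, ida-1 and unc-31, that had a value on all 3 arrays. This gave 26 of the 15078 genes tested, 22 of them flp genes and 4 processing and release genes, each measured by 1 probe. A RefSeq gene table lists 31 flp genes, and the other 9 were not analysed here, among them the gene of 1 probe that also lists a further gene. egl-3, the prohormone convertase that makes the first cut in the precursors, had values of −1.16 in prep 1 and 0.89 in prep 3 and none in prep 2, so it is not among the 26.

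Hermaphrodites taken early in young adulthood were compared, prep by prep, with a mixed pool of wild-type mRNA on 3 two-colour arrays. The pool was in channel 1 of each array and 1 prep of the worms in channel 2, and the 3 preps make up a single group. The labels give no strain name, allele or treatment for the worms, and they do not say which stages or sexes the pool held. Each value is a log2 ratio, likely of worms over reference. The basis for this direction is the channel labels, together with 3 collagen genes of the adult cuticle (col-7, col-19 and col-62) that averaged 2.60 ± 0.50 (SD of the prep means, n = 3). No label names the dyes, and if the sign ran the other way so would each direction given here. A gene was called when limma's one-sample test against 0, adjusted over all 15078 genes, gave a p under 0.05, and all adjusted p-values below come from that test. No label says that the preps were separate cultures, and the p-values therefore cover the spread among the preps alone, which may be technical. The number of arrays limits the precision.

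FMRFamide-like peptides are cut from larger precursor proteins that often hold several related peptides, each ending in an arginine and phenylalanine residue and a carboxy-terminal amide. In C. elegans the precursors are made mainly in neurons, packed into dense core vesicles, cut by the convertase EGL-3 with its chaperone SBT-1, trimmed by the carboxypeptidase EGL-21, amidated, and released with the help of UNC-31. The peptides act on G protein-coupled receptors and modulate locomotion, feeding, egg laying, social feeding and sleep.

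As a family, the flp genes lay far below the mixed reference in early young adults. Of the 22 flp genes, 20 were below the reference and 2 did not pass the test, while 22.2% of all 15078 genes were below it. None was above, against 21.7% of all genes. At an unadjusted limma p of 0.05 the count above was still 0 of 22, against 3797 of all 15078 genes. The median log2 ratio was −1.40 for the flp genes and 0.00 for all genes, and on single arrays the flp median was −1.32 in prep 1, −1.49 in prep 2 and −1.46 in prep 3. The 15 flp genes called at −1 or lower compare with 7.25% of all genes. On every array 21 of the 22 had a ratio below 0, as did 33.1% of all genes. Of the 22, 14 were among the lowest 5% of all genes and 18 among the lowest 10%. In RNA from whole worms, a smaller share of RNA from a cell type and less of a transcript per cell cannot be told apart.

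**Figure D1:**
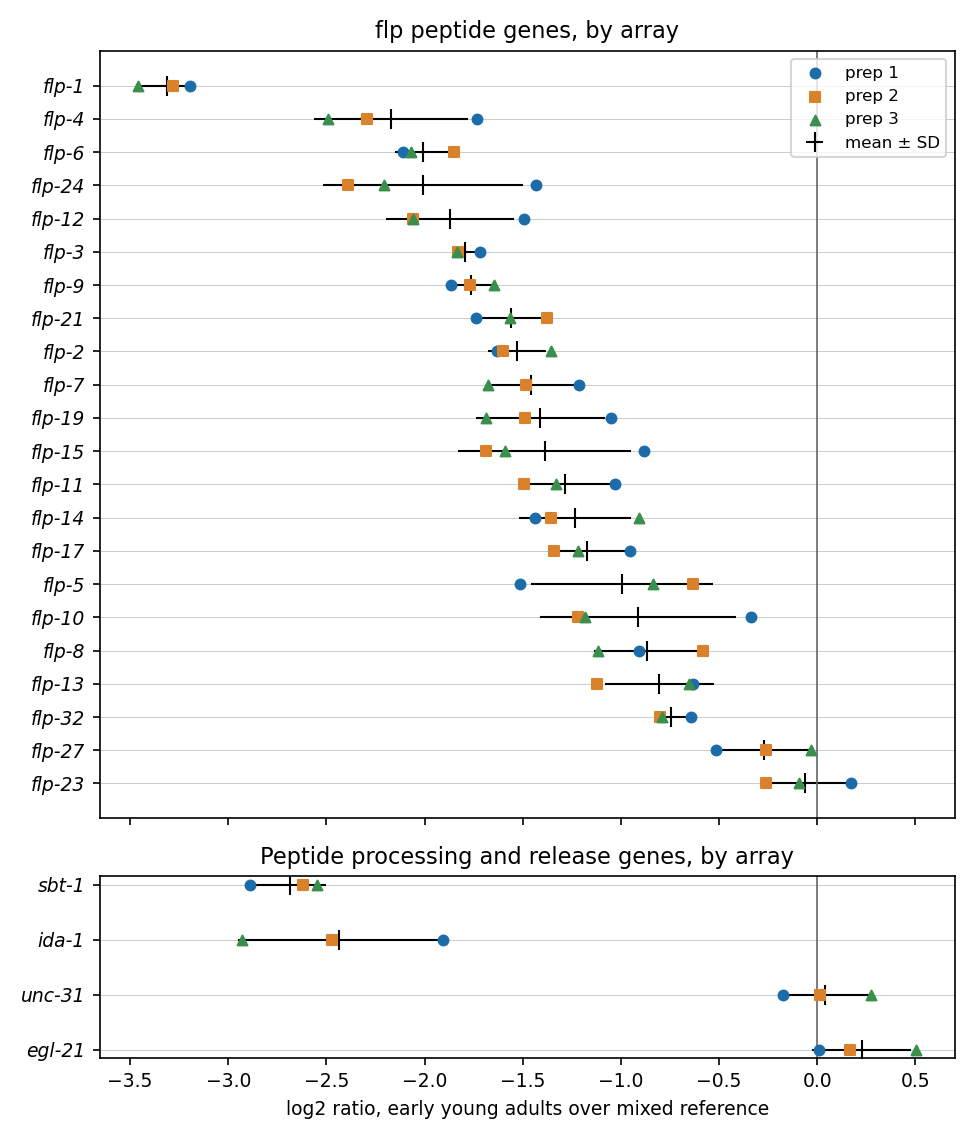
Log2 ratio of early young adult hermaphrodites over the mixed reference for the 22 flp genes (upper panel) and the 4 processing and release genes (lower panel). Each coloured point is 1 prep, and black bars are the mean ± SD of the 3 preps. flp-1 lies lowest, between −3.46 and −3.20, and flp-27, flp-23, unc-31 and egl-21 lie near 0.

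The lowest member was flp-1, on chromosome IV, whose peptides come in part from the AVK interneurons and shape locomotion. Its log2 ratio was −3.20 in prep 1, −3.28 in prep 2 and −3.46 in prep 3. The 3 preps lay close together, and none overlapped with a prep of any of the 25 other members. The mean of −3.31 ± 0.13 (SD, n = 3) is 9.93-fold below the reference (adjusted p = 1.07e-06), and flp-1 ranked 19th from the lowest of all genes.

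The next 5 flp genes in order had means between −2.17 and −1.80, with flp-9 close behind at −1.76. flp-4, on chromosome II, was at −1.73, −2.29 and −2.49 in preps 1, 2 and 3 (mean −2.17 ± 0.39, adjusted p = 1.24e-05). flp-6, on V, was at −2.11, −1.85 and −2.07 (mean −2.01 ± 0.14, adjusted p = 6.19e-06). flp-24, on III, was at −1.43, −2.39 and −2.204 (mean −2.01 ± 0.51, adjusted p = 3.79e-05). All of these were below −1.4 on every array, and prep 1 was the highest for flp-4 and flp-24 but the lowest for flp-6. flp-24 is known for its part in sleep, as a peptide gene of the ALA neuron. flp-12, on X, was at −1.49 in prep 1 and −2.06 in both other preps (mean −1.87 ± 0.33, adjusted p = 1.99e-05). flp-3, also on X, was at −1.72, −1.83 and −1.84, the smallest spread of any member (mean −1.80 ± 0.07, adjusted p = 9.46e-06).

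flp-2 is the direct neighbour of flp-3 on the X chromosome, with 0 genes between them in the WBcel235 gene table. flp-2 peptides promote arousal around the moults. Its log2 ratio was −1.63, −1.60 and −1.36 in preps 1, 2 and 3 (mean −1.53 ± 0.15, adjusted p = 2.76e-05). Each of the neighbours was thus below the reference on every array, with flp-3 lower on every array and no overlap between them.

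The peptides of flp-10 and flp-17 inhibit egg laying through the receptor EGL-6, and flp-17 is a hallmark of the carbon dioxide sensing BAG neurons. flp-17 was at −0.95, −1.34 and −1.22 (mean −1.17 ± 0.20, adjusted p = 1.54e-04), and flp-10 at −0.34, −1.22 and −1.18 (mean −0.91 ± 0.50, adjusted p = 0.00308), with prep 1 the highest for both. flp-21, whose peptide is a ligand of the social feeding receptor NPR-1, was at −1.74, −1.38 and −1.56 (mean −1.56 ± 0.18, adjusted p = 2.76e-05). flp-7, a signal from neurons to intestinal fat, was at −1.21, −1.48 and −1.68 (mean −1.46 ± 0.23, adjusted p = 5.09e-05). None of these 4 genes had a ratio above 0 on any array, and only flp-10 had 1 array above −0.9.

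The sleep genes flp-11 and flp-13 were below the reference too. flp-11 is the main sleep-promoting peptide gene of the RIS interneuron, and flp-13 acts from the ALA neuron in sleep after cellular stress. flp-11 was at −1.03, −1.49 and −1.33 (mean −1.29 ± 0.24, adjusted p = 1.07e-04). flp-13 was at −0.63, −1.12 and −0.65 (mean −0.80 ± 0.28, adjusted p = 0.00183). Both were below the reference on every array, and in both prep 2 was the lowest.

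The other called genes spanned −1.76 to −0.74 in mean log2 ratio. flp-9 was at −1.87, −1.77 and −1.65, flp-19 at −1.05, −1.49 and −1.69, and flp-15 at −0.88, −1.69 and −1.59. flp-14 was at −1.44, −1.36 and −0.91. These 4 genes were below −0.8 on every array, with no common order of the preps. flp-5 was at −1.51, −0.63 and −0.83, flp-8 at −0.91, −0.58 and −1.11, and flp-32 at −0.64, −0.80 and −0.79. The largest adjusted p among these 7 genes was 0.00156, for flp-5.

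The remaining 2 flp genes did not pass. flp-27 was at −0.52, −0.26 and −0.03 in preps 1, 2 and 3 (mean −0.27 ± 0.24, 95% interval −0.59 to 0.05, adjusted p = 0.162). flp-23 was at 0.17, −0.26 and −0.09 (mean −0.06 ± 0.22, 95% interval −0.38 to 0.26, adjusted p = 0.766). The preps of both genes were near 0 and on both sides of it for flp-23, and neither interval reached −0.74, the mean of flp-32, the called gene nearest to 0.

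The processing and release genes split into 2 with means between those of flp-1 and flp-4 and 2 that did not pass. sbt-1, the chaperone of the convertase EGL-3, was at −2.89, −2.62 and −2.55 (mean −2.68 ± 0.18, 6.43-fold below the reference, adjusted p = 2.12e-06). ida-1, a membrane protein of dense core vesicles, was at −1.91, −2.47 and −2.93 (mean −2.44 ± 0.51, 5.42-fold below, adjusted p = 1.30e-05). Every array of these 2 genes was below −1.9, and they ranked 61st and 92nd from the lowest of all genes. In contrast, egl-21, the carboxypeptidase that trims cut peptides, was at 0.01, 0.16 and 0.50 (mean 0.23 ± 0.25, 95% interval −0.10 to 0.55, adjusted p = 0.241). unc-31, the calcium-dependent activator of dense core vesicle release, was at −0.17, 0.01 and 0.27 (mean 0.04 ± 0.23, 95% interval −0.28 to 0.36, adjusted p = 0.857). Their preps did not overlap with those of sbt-1 and ida-1. The convertase egl-3, with a value on only 2 arrays of opposite sign, had a mean of −0.14 ± 1.45 (SD, n = 2) and did not pass when such genes were let in (adjusted p = 0.815).

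Other steps of peptide processing were covered by a further list. Of 7 measured genes for amidation and other processing, 4 were below the reference and 1 above, with 2 not passing. Of all genes, 22.2% were below and 21.7% above. pgal-1, which completes the amidation reaction, was at −2.78, −2.78 and −2.88 (mean −2.81 ± 0.06, adjusted p = 1.94e-06). pamn-1, which encodes a bifunctional amidating enzyme, was at −1.66, −1.85 and −2.11 (mean −1.88 ± 0.23, adjusted p = 1.20e-05). kpc-1, a furin-like convertase that acts in dendrite growth, was at −0.94, −1.50 and −1.63 (mean −1.36 ± 0.37, adjusted p = 1.61e-04). Both amidation genes were below −1.6 on every array, and kpc-1 was highest in prep 1. The carboxypeptidase gene cpd-1 was at −0.36 ± 0.04 (adjusted p = 0.0450), a call that ended when prep 2 or prep 3 was left out (adjusted p = 0.268 and 0.167). cpd-2 at −0.06 ± 0.12 and the convertase gene aex-5 at 0.02 ± 0.20 did not pass. bli-4, a convertase of the epidermis that acts in cuticle formation, was above the reference at 0.56 ± 0.31 (adjusted p = 0.0140), but with each block of 500 neighbouring probes centred it did not pass (0.37, adjusted p = 0.0525).

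Genes that form, move and release dense core vesicles were below the reference in part. Of 12 measured genes, 7 were below, 0 were above (0 also at an unadjusted limma p of 0.05) and 5 did not pass. Of all 15078 genes, 22.2% were below and 21.7% above by the adjusted p, and 3797 were above by the unadjusted p. The median was −0.48, and 3 of the 12 genes (rab-3, aex-3 and unc-104) are also in the pan-neuronal list described further on. The small GTPase gene rab-3, which marks synaptic vesicles, was at −1.22, −2.05 and −1.84 (mean −1.70 ± 0.43, adjusted p = 6.34e-05). The RAB-2 GTPase gene unc-108 was at −0.85, −1.08 and −1.11 (mean −1.01 ± 0.14, adjusted p = 2.82e-04). Of these 12 genes only rab-3 and unc-108 were called at −1 or lower. Also below were cccp-1 and ric-19, which act with RAB-2 in vesicle maturation, at −0.72 ± 0.24 and −0.68 ± 0.28. The regulator gene aex-3 was at −0.66 ± 0.10. The calls of hid-1 (−0.52 ± 0.13, adjusted p = 0.0108) and of the kinase gene pkc-1 (−0.44 ± 0.15, adjusted p = 0.0239) were lost without prep 2 (adjusted p = 0.0622 and 0.106), and that of pkc-1 also without prep 3 (adjusted p = 0.207). tbc-8 at −0.36 ± 0.39, rab-6.2 at −0.34 ± 0.09, rund-1 at −0.05 ± 0.28, vps-50 at 0.00 ± 0.22 and the kinesin gene unc-104 at 0.04 ± 0.29 did not pass. Without prep 1, tbc-8 passed at −0.58 (adjusted p = 0.00300).

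**Figure D2:**
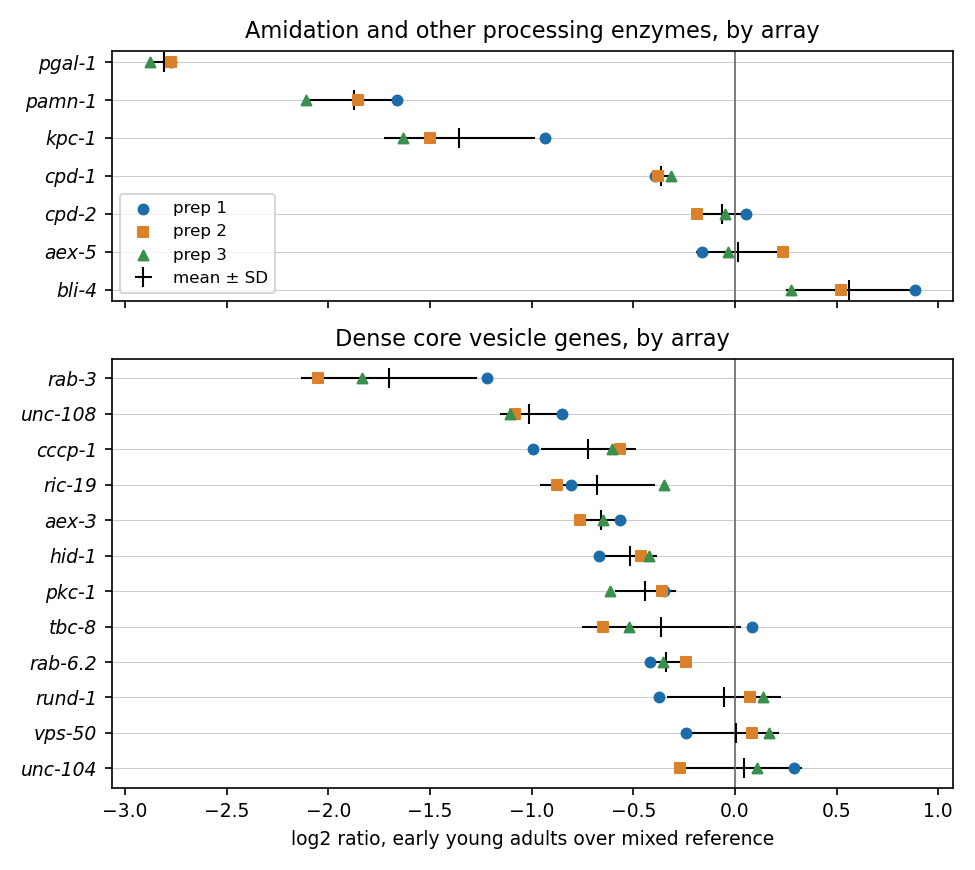
Log2 ratio of early young adult hermaphrodites over the mixed reference for 7 genes of amidation and other processing (upper panel) and 12 genes of dense core vesicles (lower panel). Coloured points are preps and black bars the mean ± SD of the 3 preps. pgal-1, pamn-1 and kpc-1 stand apart from the other enzymes, and most vesicle genes lie between −1 and 0.

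Receptors for neuropeptides were below the reference in part. Of 70 measured genes named npr-, frpr- or dmsr-, or egl-6, 27 were below and 0 above, with 43 not passing (2 above at an unadjusted limma p of 0.05). Of all 15078 genes, 22.2% were below and 21.7% above by the adjusted p, and 3797 were above by the unadjusted p. The median was −0.32. The count of 27 below (38.6%) was 16 without prep 2 and 16 without prep 3, where 15.5% and 16.3% of all genes were below. The lowest was dmsr-1, which encodes a receptor for flp-13 peptides, at −1.20, −2.19 and −1.32 (mean −1.57 ± 0.54, adjusted p = 1.90e-04), lower on every array than flp-13 itself. Other receptors with a known flp ligand were chosen after their values were seen. frpr-18, a receptor for flp-2 peptides, was at −0.75 ± 0.31 (adjusted p = 0.00331). npr-1, the receptor for flp-21, at −0.15 ± 0.20 (adjusted p = 0.417) and egl-6 at −0.26 ± 0.19 (adjusted p = 0.167) did not pass.

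Among the lists of neuronal and neuropeptide-like genes, the flp genes had the lowest median, although the differences between lists were not tested. The 52 nlp genes, which encode other neuropeptide-like precursors, had a median of −1.08, with 37 below, 1 above and 14 not passing. They were taken by name alone, so not all of them need be neuronal. The 24 pan-neuronal and synaptic vesicle genes had a median of −0.67, with 18 below, 2 above and 4 not passing. The lowest of these, the SNARE gene ric-4, at −1.88 ± 0.16 and the synaptotagmin gene snt-1 at −1.75 ± 0.22, reached about the level of flp-12 and flp-9. The 2 above, the endophilin gene unc-57 and unc-11, which act in vesicle recycling, were at 0.53 ± 0.41 and 0.40 ± 0.10, and the number above was 0 without prep 2 and 1 without prep 1 or prep 3. The 17 genes of transmitter synthesis and transport had a median of −0.39, with 8 below (5 without prep 2 and 5 without prep 3), 1 above (0 without prep 2 and 2 without prep 1) and 8 not passing. The lowest of these were the GABA synthesis gene unc-25 at −1.91 ± 0.21 and the GABA transporter gene snf-11 at −1.53 ± 0.42. For all genes the median was 0.00, with 22.2% below and 21.7% above. The share of all genes below was 15.5% without prep 2 and 16.3% without prep 3. The share above was 25.4% without prep 1, 15.1% without prep 2 and 16.3% without prep 3.

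**Figure D3:**
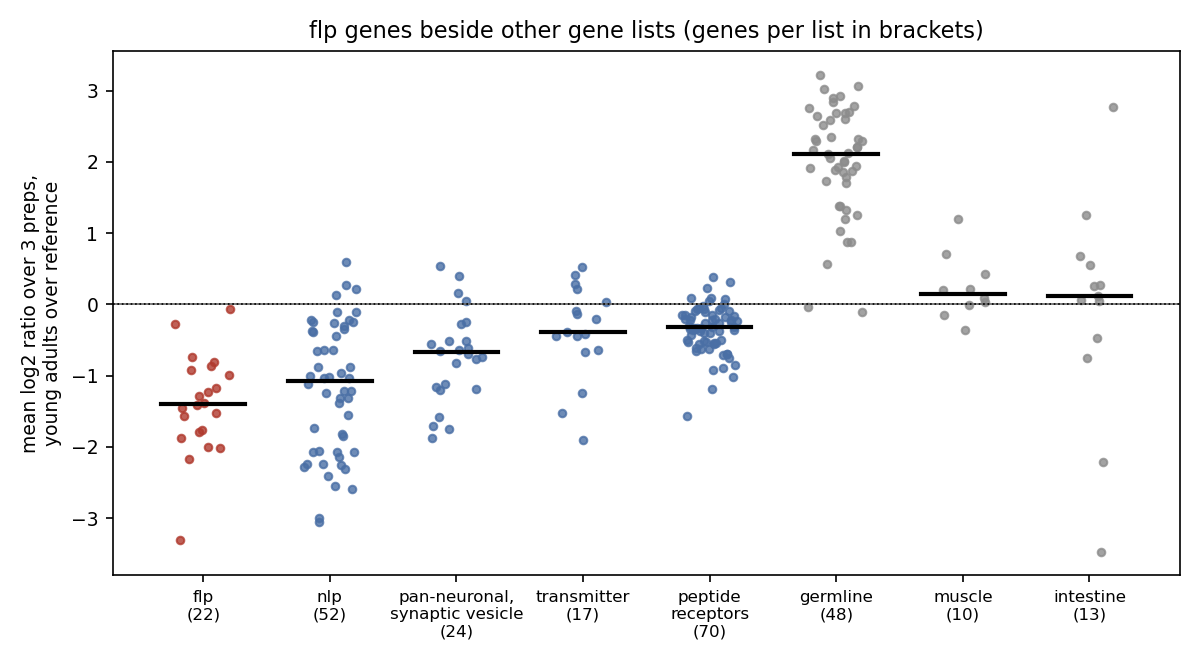
Mean log2 ratio over 3 preps of early young adults over the mixed reference, with 1 point per gene and the number of genes of each list in brackets. Thick bars are medians and the dotted line is the median of all genes. The flp genes have a median of −1.40 and the germline list a median of 2.12. The nlp, pan-neuronal, transmitter and receptor lists have medians between −1.08 and −0.32.

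Most germline markers stood above the reference in the same worms, while most muscle and intestine markers did not. Of 48 germline markers, most of them genes of the major sperm protein family, 46 were above the reference. None was below (0 also at an unadjusted limma p of 0.05), and the median was 2.09, 2.13 and 2.19 in preps 1, 2 and 3. Most of the markers outside that family had means below the list median of 2.12, so the family weighs heavily in the count and the median. Of 10 body wall muscle markers, 3 were above, 0 were below (0 also at an unadjusted limma p of 0.05) and 7 did not pass, with a median of 0.14 (0.30 without prep 1, where 1 was below and 4 above). Of 13 intestine markers 4 were above (2 without prep 2), 4 below and 5 did not pass, with a median of 0.12 (0.05 to 0.24 with 1 prep left out). Of all 15078 genes, 21.7% were above and 22.2% below by the adjusted p, and 3872 were below by the unadjusted p. Without prep 1, 26% of all genes were below and 25.4% above, and without prep 2 15.1% were above. The part of a larger share of germline RNA in the low flp ratios was not tested.

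The flp genes on X and those on autosomes had close medians, while the genes on X as a whole had a lower median than those on autosomes. Neither difference was tested. Of the 22, 9 are on X, 5 on IV, 4 on III, 2 on II and 2 on V. All 9 X-linked flp genes were below the reference, against 33.3% of the 2249 genes on X, and their median was −1.41, against −0.22 for all X-linked genes. Of the 13 autosomal flp genes 11 were below, against 20.3% of the 12751 autosomal genes, and their median was −1.39, against 0.05 for all autosomal genes. The X-linked flp genes ran from −1.87 for flp-12 to −0.74 for flp-32, within the range of the autosomal ones, which ran from −3.31 for flp-1 to −0.06 for flp-23.

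The preps differed most between prep 1 and the other arrays. Over the 26 members the ratios of prep 2 and prep 3 had a Pearson r of 0.968 (Spearman rho 0.964), those of prep 1 and prep 3 an r of 0.860 (rho 0.823), and those of prep 1 and prep 2 an r of 0.855 (rho 0.822). These describe genes that share the arrays and the reference, and over all genes r was 0.919, 0.798 and 0.822 in the same order. For 14 of the 22 flp genes prep 1 was the highest of the 3 arrays. The median SD over preps was 0.24 for the flp genes and 0.22 for all genes, and 9 of the 22 spanned more than 0.5 between their lowest and highest prep. How many of all genes were highest in prep 1 or spanned more than 0.5 was not counted, so neither count is particular to the flp genes. Ranked by mean, 23 of the 25 neighbouring pairs of members overlapped in their prep values.

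**Figure D4:**
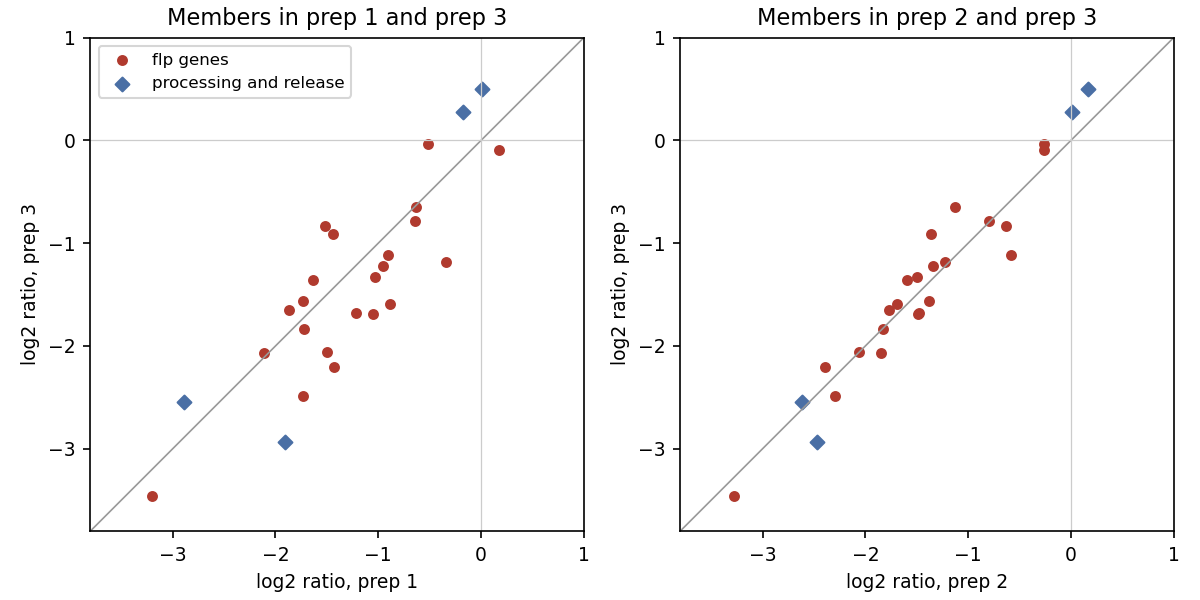
Log2 ratio of the 26 members in prep 1 against prep 3 (left) and prep 2 against prep 3 (right), with the line of equal values. Red circles are flp genes and blue diamonds processing and release genes. Points scatter more widely around the line for prep 1 (r = 0.860) than for prep 2 (r = 0.968).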

How the data were processed

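The members and gene lists were chosen with earlier results of these data known. The authors deposited log2 ratios, 1 for each probe and array. As a check of the log base, ratios under 1 were recovered as powers of 2, and 100% of them fell on steps of 0.001 (tolerance 0.01 of a step), against 1.46% as powers of 10. How the authors corrected, normalized and dyed the arrays is not stated in the labels. The array medians were 0.01, 0.01 and 0.02, and the ratios were used as deposited.

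Of 20000 probes, 19664 were measured on all 3 arrays. Platform annotation named 15655 probes with a single symbol, and values of several probes of a gene (414 genes) were averaged. limma 3.58.1 in R 4.3.3 tested whether each gene's mean ratio differed from 0, with moderated variances, two-sided, and Benjamini-Hochberg adjustment at 0.05 over 15078 genes. The spread of the reference itself is not in this test. On simulated data of 15078 genes, with 50 genes shifted by each amount, the test called 10% of genes shifted by 0.5 on the log2 scale. It called 92% at a shift of 1 and 100% at shifts of 2 and 3, besides 10 unshifted genes. In the real data 22.2% of genes were below and 21.7% above, which makes the adjusted threshold looser than in the simulation. The simulated shares therefore do not measure how often real shifts of these sizes were called. Genes that could be named were all members, all measured genes of lists with 16 or fewer entries, and the lowest and highest 2 genes of other lists. Muscle, intestine, germline and nlp genes are given as counts and medians only, and 3 receptors were named outside this rule. The alternatives were each prep left out, centring, scaling or quantile normalization of arrays, probes on at least 2 arrays, robust or no variance moderation, a 1.2-fold margin, single probes, and centred blocks of 500 neighbouring probes. Precursor protein features were planned and not analysed here.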

Additional observations from a re-analysis of the deposited data

How the results depend on the processing

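All 22 called members kept their call and direction under 11 of 12 alternatives, and the 4 other members passed under none. Each member has 1 probe with a value on all 3 arrays. Single probes and probes on at least 2 arrays thus left the member ratios unchanged and could hardly change a call. The exception was the test without variance moderation, which called 0 genes among the members, in each list and over all 15078 genes. At an unadjusted p of 0.05 that test had 20 of 26 members and 18 of 22 flp genes below, beside 2813 of all 15078 genes. With each prep left out in turn, the median of the flp genes and of all members ran from −1.47 to −1.30, that of X-linked flp genes from −1.48 to −1.27 and that of autosomal flp genes from −1.47 to −1.24. Over the same settings the receptors below ran from 16 to 37, the transmitter genes below from 5 to 9 and above from 0 to 2 (median −0.33 to −0.29), and the pan-neuronal genes above from 0 to 1. The share of all genes below likewise ran from 15.5% to 26%, and the share above from 15.1% to 25.4%. The median of the dense core vesicle genes ran from −0.53 to −0.46. With blocks of 500 probes centred, the medians were −1.30 for the flp genes and for all members, −1.22 for X-linked flp genes, −0.38 for the dense core vesicle genes and −0.56 for amidation and other processing. In the same setting 2 nlp genes, 0 pan-neuronal genes and 0 processing enzymes were above. Fewer of all genes were above there too than without block centring. Against a 1.2-fold margin 11 receptors and 5 transmitter genes were below, and 0 genes of the nlp, pan-neuronal, transmitter and processing lists were above. Fewer of all genes were likewise called below and above at this margin than without it. The share of the 70 receptors below was then only slightly larger than that of all genes. The cause of these shifts was not tested. No paired analysis was possible because the arrays form 1 group. The comparison over precursor proteins was not run. Signal over background was not analysed here, so a limit from dim spots cannot be given.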
